A study of Mus musculus with 10 samples.

Results

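The carbonic anhydrases are a family of zinc enzymes, and the 5 members described are the mouse genes Car2, Car3, Car5a, Car8 and Car14. They were chosen from their log2 ratios on these arrays, with the differences between the 3 groups known, so their values below are a description and carry no test. A probe was assigned to a member through its RefSeq accession. This gave 5 probes for 4 of the 5 members, 2 of them for Car8, out of 41174 probes in all. All 4 genes were among the 26122 genes tested, and their 5 probes stood well above background in the liver channel on all 10 arrays. No probe matched Car5a, which is not analysed here. Of the 11 other carbonic anhydrase genes, all had a probe and 10 were tested.

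Male C57BL/6N mice gave the liver RNA, which was labelled with Cy5 and hybridised on 2-colour Agilent arrays against one commercial mixed mouse RNA labelled with Cy3. The groups were an ethanol gavage of 7 g/kg (3 arrays), an ethanol gavage of 5 g/kg (4 arrays), and an isocaloric maltose gavage matched to the lower ethanol dose (3 arrays). No group received neither ethanol nor maltose, no maltose group was matched to 7 g/kg, and the labels name no genetic change, no age and no time between gavage and collection. The labels do not say whether an array holds 1 animal or a pool, so every error below measures the spread between arrays.

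Carbonic anhydrases convert carbon dioxide and water into bicarbonate and a proton. Hepatocytes use that reaction to hold their pH and to supply bicarbonate to carboxylases and to the first step of the urea cycle. Car2 is the fast cytosolic enzyme, also abundant in red cells, and Car3 is a slow cytosolic enzyme abundant in liver, fat and muscle. In rat liver Car3 is higher in males and depends on growth hormone. Car5a works in mitochondria, Car14 is anchored in the plasma membrane with its active site outside the cell, and Car8 has lost catalytic activity and binds the type 1 IP3 receptor.

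Values are log2 ratios of liver over reference signal after loess normalization within each array, so that 0 means a signal equal to the reference and 1 unit is a doubling. The liver channel had a median of 121 to 219 units on each array and its background 21 to 24. No spot was saturated, and the number of arrays limits the precision. All 11 hepatocyte markers on the array stood well above background on every array. Changes are differences of group means with the standard error (SE) of one limma fit of all 10 arrays. A gene was called where its two-sided p, adjusted by Benjamini-Hochberg for the whole set of genes, was under 0.05. At 7 g/kg against maltose 4.66% of genes were called higher and 4.35% lower. At 5 g/kg against maltose the shares were 2.23% and 1.57%, and between 7 and 5 g/kg they were 0.662% and 0.907%. Of the 4 measured members, 1 was called higher and 2 lower at 7 g/kg, none at 5 g/kg, and 1 higher at 7 than at 5 g/kg. Because these same contrasts were in view when the members were chosen, nothing is read from those counts. The same holds where the arrays of a member do not overlap between groups. The share of all genes without such overlap was not counted. Of called genes, 51.7% were higher at 7 g/kg, 58.7% at 5 g/kg and 42.2% between the doses, and with each array centred on its median in place of loess these shares were 67.0%, 75.4% and 52.4%.

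**Figure D1:**
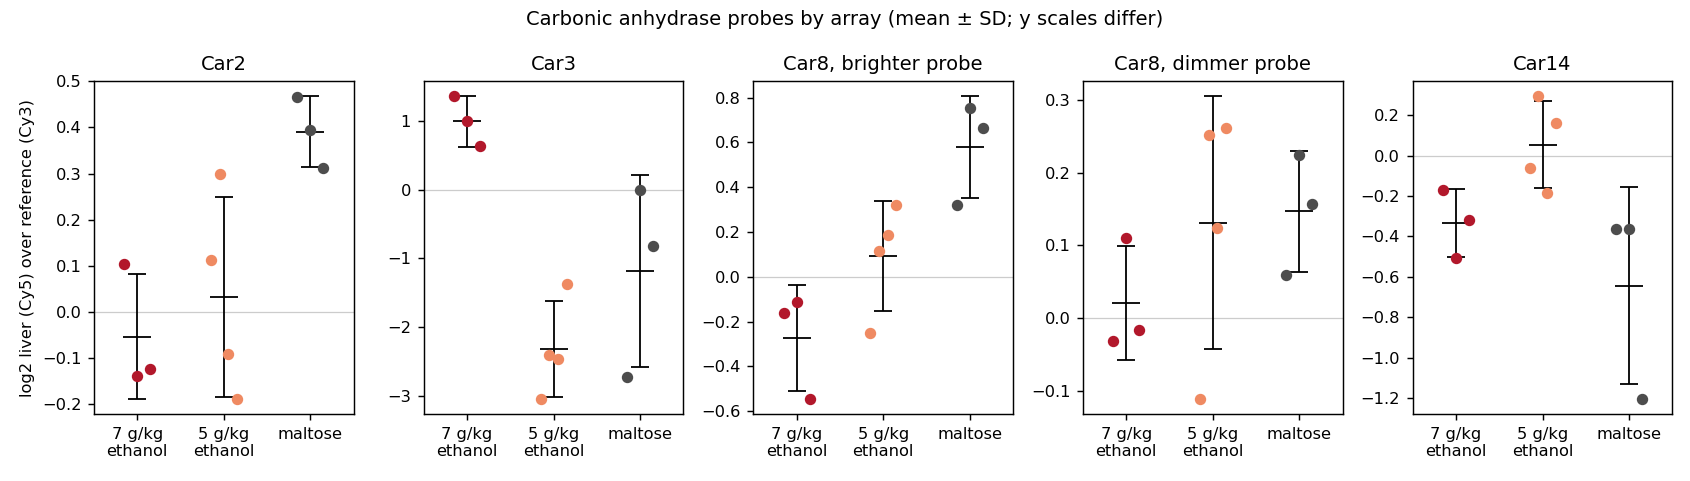
Log2 liver over reference ratio of each member probe on each array, with 1 point per array and bars for the mean ± SD at 7 g/kg ethanol (n = 3), 5 g/kg ethanol (n = 4) and maltose (n = 3); the y scales differ between panels. Car3 lies above 0 on all 7 g/kg arrays and at or below 0.00 on the rest, Car2 and the brighter Car8 probe are highest with maltose, and Car14 is highest at 5 g/kg.

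The cytosolic enzyme gene Car3 was the most variable member and the one with the largest differences. Its log2 ratios were 1.36, 0.99 and 0.63 at 7 g/kg. They were −3.05, −2.40, −2.46 and −1.37 at 5 g/kg, against −2.72, 0.00 and −0.82 with maltose. All 7 g/kg arrays lay above every other array, while the 5 g/kg and maltose arrays overlapped, since the first maltose array fell among the 5 g/kg arrays. The order of the means was therefore 7 g/kg (1.00 ± 0.366, SD, n = 3), maltose (−1.18 ± 1.40, n = 3) and 5 g/kg (−2.32 ± 0.700, n = 4), and the lower pair did not separate beyond its spread.

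Car3 was 4.52-fold higher at 7 g/kg than with maltose (log2 2.18, SE 0.522) and 9.96-fold higher at 7 than at 5 g/kg (log2 3.32, SE 0.488). At 5 g/kg it was at 45.4% of the maltose level (log2 −1.14, SE 0.488). The means of the ethanol groups thus lay on opposite sides of the maltose mean, with the 5 g/kg and maltose arrays overlapping. Among the 26122 genes 3 had a higher change between 7 and 5 g/kg, 37 a higher change at 7 g/kg, and 28 a lower change at 5 g/kg. Car3 was chosen with these contrasts in view, so nothing is read from its ranks. In bulk liver RNA, a change in the number of cells that express a gene and a change in RNA per cell cannot be told apart.

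The spread of Car3 within groups was also large. Its residual SD was 0.898 on the log2 scale, against a median of 0.155 over all genes, and only 3 genes had a larger one. Leaving out single maltose arrays moved its changes. Without the first maltose array the change at 5 g/kg was −1.91, and without the second it was −0.55. The change at 7 g/kg was 1.41 without the first maltose array and 2.77 without the second, while the change between the doses ranged from 3.07 to 3.63 over all arrays left out in turn.

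The arrays sat on 4 slides, each scanned once, so the same difference could be taken within a slide. Within the slides that held both groups, Car3 at 7 g/kg was 1.45 and 1.36 above maltose, and 3.45, 2.00 and 3.77 above 5 g/kg. Within slides the 5 g/kg array was −0.55, −0.33 and −2.41 from the maltose array. The sign was the same on every slide in each comparison, and the size at 5 g/kg differed most between slides.

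Raw liver signals of the Car3 spot were 74936, 73051.5 and 70639 units at 7 g/kg. They were 5362, 8668, 10179.5 and 21308 units at 5 g/kg and 10614, 25638 and 29846.5 units with maltose. The reference channel of this spot also differed between groups once normalized, although the same reference RNA was used throughout. Its raw range was 33952 to 45503 units at 7 g/kg, 43175 to 82241.5 at 5 g/kg and 35165 to 74089 with maltose. These raw ranges overlapped. After quantile normalization of the channel alone, the reference read log2 14.94 to 15.37 at 7 g/kg, 15.61 to 15.97 at 5 g/kg and 15.58 to 16.18 with maltose. The reference was thus lower by 0.64 at 7 g/kg than with maltose, a part of the ratio that does not come from the liver channel. In the liver channel alone Car3 was still higher on every 7 g/kg array than on any other, by 1.41 in the mean against maltose and 2.55 against 5 g/kg, and it was lower by 1.13 at 5 g/kg than with maltose. What lowered the reference signal was not tested.

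**Figure D2:**
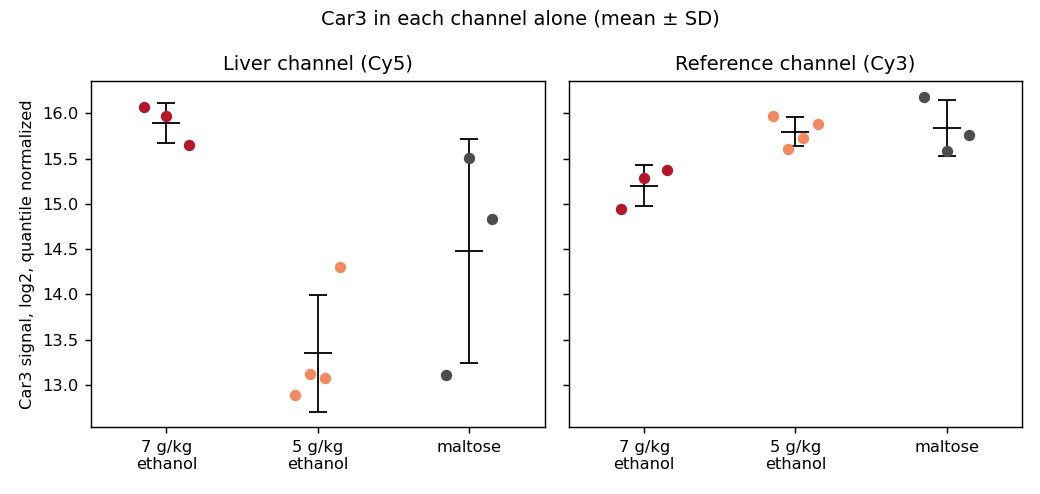
Car3 signal of the liver channel (Cy5, left) and of the common reference channel (Cy3, right), each quantile normalized alone, on the log2 scale, with 1 point per array and the mean ± SD of each group. The liver channel of the 7 g/kg arrays lies above all others (15.65 to 16.07), and their reference channel lies below all others (14.94 to 15.37).

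Car3 is also abundant in fat and muscle, so markers of those tissues were read beside it. Of 11 adipocyte markers on the array 8 stood well above background on all arrays. Summed signals of the 9 markers with a value on every array were 2977 to 3684 units at 7 g/kg, 3115 to 3842 at 5 g/kg and 2978 to 3423 with maltose, so these ranges overlapped. One adipocyte marker of 10 tested, the fatty acid carrier gene Fabp4, was called (0.75 at 7 g/kg, SE 0.152, limma adjusted p = 0.00959, n = 3 and 2). In a fit blocked by slide, its adjusted p was 0.0622, without the first maltose array it was 0.111, and averaged over its probes the change was 1.59. Muscle marker sums were 3348 to 4249 units at 7 g/kg, 2328 to 4101 at 5 g/kg and 1813 to 1986 with maltose. Every ethanol array thus had a higher muscle sum than any maltose array. The median change of the muscle markers tested was only 0.079 at 7 g/kg and 0.083 at 5 g/kg. Of the muscle markers 9 of 12 were tested and Tnnt3, a fast troponin gene, was called higher at 7 g/kg (1.66, SE 0.274, limma adjusted p = 0.00142) and at 5 g/kg (1.19, SE 0.256, adjusted p = 0.0178). Averaged over its probes, Tnnt3 changed by 0.82 (adjusted p = 0.0419) at 7 g/kg and by 0.68 (adjusted p = 0.116) at 5 g/kg, and its call at 5 g/kg was also lost without any single maltose array. Of the 12 muscle markers 7 stood well above background on all 10 arrays, while the defining markers Actn3 and Pvalb did not stand well above background on any array. The part of these tissues in the Car3 values was not tested.

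Car2, the fast cytosolic enzyme gene, was lower in both ethanol groups than with maltose. Its log2 ratios were 0.10, −0.14 and −0.12 at 7 g/kg. They were 0.11, 0.30, −0.09 and −0.19 at 5 g/kg, against 0.47, 0.39 and 0.31 with maltose. Every ethanol array lay below every maltose array, although the gap at 5 g/kg was only 0.014. The means were −0.053 ± 0.136 at 7 g/kg (SD, n = 3), 0.033 ± 0.217 at 5 g/kg (n = 4) and 0.391 ± 0.077 with maltose (n = 3), and the ethanol groups overlapped each other.

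Car2 was at 73.5% of the maltose level at 7 g/kg (log2 −0.44, SE 0.131) and at 78.0% at 5 g/kg (log2 −0.36, SE 0.122). The difference between the doses was −0.09 (SE 0.122) and turned to 0.003 without the second 5 g/kg array. Within slides Car2 differed from maltose by −0.44 and −0.29 at 7 g/kg. At 5 g/kg the within-slide values were −0.50, −0.35 and −0.10, so it was lower on each slide. The scanner software's own ratio and the deposited series table gave −0.72 at 7 g/kg. The Car2 liver signal was 118 to 257 units per array.

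Car2 is shared with red cells, and 10 red cell and precursor markers had a value on every array. Their summed signal was 10914 to 39201 units at 7 g/kg, 17493 to 19815 at 5 g/kg and 10408 to 11481 with maltose. The 7 g/kg and maltose ranges overlapped, while every 5 g/kg array had a higher sum than any maltose array. The median change of the list was 0.17 at 7 g/kg and 0.03 at 5 g/kg. Of 9 tested, the erythroid factor gene Klf1 was called lower at 7 g/kg (−0.61, SE 0.128, limma adjusted p = 0.00746) and at 5 g/kg (−0.79, SE 0.120, adjusted p = 0.00198). The erythroid haem synthesis gene Alas2 was called higher at 7 g/kg (0.63, SE 0.174, limma adjusted p = 0.0361). In a fit blocked by slide, the adjusted p of Alas2 was 0.15, and the call was also lost without any single 7 g/kg array and without maltose array 1 or 3. The part of red cells in the Car2 values was not tested.

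Car8, the inactive family member, was lower with ethanol than with maltose on the brighter of its 2 probes. The log2 ratios of that probe were −0.16, −0.11 and −0.55 at 7 g/kg. They were −0.25, 0.12, 0.18 and 0.32 at 5 g/kg, against 0.32, 0.75 and 0.66 with maltose. The 7 g/kg arrays all lay below the maltose arrays, and at 5 g/kg 3 arrays lay below them while the fourth was level with the lowest maltose array. The means were −0.274 ± 0.238 at 7 g/kg, 0.093 ± 0.245 at 5 g/kg and 0.579 ± 0.227 with maltose, and the ethanol groups overlapped.

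On this probe Car8 was at 55.4% of the maltose level at 7 g/kg (log2 −0.85, SE 0.164) and at 71.4% at 5 g/kg (log2 −0.49, SE 0.153). The change between the doses was −0.37 (SE 0.153), and without the third 7 g/kg array it was −0.23. Within slides it differed from maltose by −1.21 and −0.92 at 7 g/kg. At 5 g/kg the within-slide values were −0.34, −0.57 and −0.64, lower on each slide.

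The second Car8 probe, with liver signals of 58 to 134 units, gave other values. Its changes were −0.13 at 7 g/kg (SE 0.118) and −0.02 at 5 g/kg (SE 0.110), and its groups overlapped in each comparison. Averaged over both probes, Car8 was −0.49 at 7 g/kg and −0.25 at 5 g/kg. The files do not say which transcripts either probe reads, so the lower Car8 values rest on the brighter probe.

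Beside Car2 and Car8, the summed signal of pericentral hepatocyte markers was lower on every ethanol array than on any maltose array. Over 9 of these markers it was 73886 to 97837 units at 7 g/kg, 84365 to 113847 at 5 g/kg and 126404 to 153218 with maltose. Of 11 tested, 1 was called higher and 4 lower at 7 g/kg, and 2 were called lower at 5 g/kg. The 1 called higher was the P450 gene Cyp1a2 (log2 1.03 at 7 g/kg, and 0.02 at 5 g/kg). Oat, an ornithine-degrading enzyme gene, was lower at 7 g/kg (log2 −1.54, SE 0.126, limma adjusted p = 1.55e-05, n = 3 and 2) and so was Cyp2a5, a P450 gene (log2 −1.89, SE 0.241, adjusted p = 0.00036). Axin2 was never well above background. Periportal marker sums, over 7 markers, were 86610 to 114561 units at 7 g/kg, 87250 to 122778 at 5 g/kg and 90544 to 142230 with maltose, so these groups overlapped. Of 9 periportal markers tested, 2 were called higher and 3 lower at 7 g/kg, and 1 lower at 5 g/kg. Their median change at 7 g/kg was −0.28, beside −0.22 for the pericentral list. The 2 called higher were Sds (0.64) and Cyp2f2 (0.60), calls kept in 8 and 14 of the 23 alternatives described below. The histidine-degrading enzyme gene Hal was lower at 7 g/kg (−1.27, SE 0.193, limma adjusted p = 0.001) and at 5 g/kg (−0.85, adjusted p = 0.0261, n = 3 each). The Hal call at 5 g/kg was kept in 17 of the 23 alternatives. Among those that lost it were the fits without the first maltose array or the third 5 g/kg array. Aldh1b1, a mitochondrial aldehyde dehydrogenase gene, was lower at 7 g/kg (−1.02, SE 0.154, limma adjusted p = 0.000729). The part of either zone in the Car2 and Car8 values was not tested.

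Other marker lists also held called genes. Of the 11 hepatocyte markers, 5 were called higher and 1 lower at 7 g/kg, and 2 higher at 5 g/kg, while their summed signals overlapped between groups. In a fit blocked by slide, 3 were called higher at 7 g/kg and 1 at 5 g/kg. The fibrinogen gene Fgb was higher by 2.64 at 7 g/kg (SE 0.335, limma adjusted p = 0.00018), or by 1.01 with Cy5 alone. The ethanol-oxidising P450 gene Cyp2e1, also on the pericentral list, was lower (−0.77, SE 0.144, adjusted p = 0.00348). Of 11 neutrophil markers tested, the calprotectin genes S100a8 and S100a9 were called higher at 7 g/kg (1.28, SE 0.182, limma adjusted p = 0.000445, and 1.41, SE 0.233, adjusted p = 0.00147). With the scanner software's ratio S100a8 changed by 3.82. Neutrophil sums were 3790 to 4294 units at 7 g/kg, 3207 to 4327 at 5 g/kg and 2926 to 5089 with maltose. Of 10 bile duct markers, the bile acid transporter gene Slc10a2 was called higher at 7 g/kg (3.20, SE 0.227, limma adjusted p = 2.32e-06, n = 2 and 3) and at 5 g/kg (1.82, SE 0.190, adjusted p = 0.000174), and the osteopontin gene Spp1 lower at 5 g/kg (−0.48, SE 0.104, adjusted p = 0.0187). Spp1 was not called without maltose array 2 or 3 or without the third 5 g/kg array. The part of these cells in the members' values was not tested.

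Car14, the membrane-bound enzyme gene, was highest at 5 g/kg. Its log2 ratios were −0.17, −0.51 and −0.32 at 7 g/kg. They were −0.06, 0.29, −0.18 and 0.16 at 5 g/kg, against −0.36, −0.36 and −1.21 with maltose. All 5 g/kg arrays lay above all maltose arrays, and the 7 g/kg arrays overlapped both groups, with 5 g/kg by 0.01. The means were −0.332 ± 0.168 at 7 g/kg, 0.054 ± 0.215 at 5 g/kg and −0.643 ± 0.487 with maltose.

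Car14 was 1.62-fold higher at 5 g/kg than with maltose (log2 0.70, SE 0.186) and 1.24-fold higher at 7 g/kg (log2 0.31, SE 0.199). Between 7 and 5 g/kg its change was −0.39 (SE 0.186). The third maltose array, at −1.21, weighed on these changes: without it the change was 0.42 at 5 g/kg and 0.03 at 7 g/kg. Within slides Car14 was 1.37, 0.30 and 0.66 above maltose at 5 g/kg and 0.89 and 0.19 above it at 7 g/kg. The residual SD of 0.309 was exceeded by 4.34% of genes.

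The 4 members therefore did not share a pattern over the groups. Car3 had its highest mean at 7 g/kg, Car14 at 5 g/kg, and Car2 and Car8 with maltose. Car2 and Car3 are neighbours in the genome: in the GRCm38.p6 annotation Car13, Car1, Car3 and Car2 are 4 consecutive protein-coding genes on chromosome 3. Their values on the arrays differed in direction, with Car3 higher and Car2 lower at 7 g/kg than with maltose, and both lower at 5 g/kg.

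None of the 10 other carbonic anhydrase genes tested was called in any comparison with limma, and 0, 3 and 1 had an unadjusted p under 0.05 at 7 g/kg, at 5 g/kg and between the doses. Their changes ran from −0.23 to 0.30 at 7 g/kg, with adjusted p of 0.370 to 0.981. They ran from −0.38 to 0.29 at 5 g/kg, with adjusted p of 0.119 to 0.998, and from −0.16 to 0.32 between the doses, with adjusted p of 0.403 to 0.985. The median change of these 10 was 0.09 at 7 g/kg and −0.07 at 5 g/kg, beside 0.01 and 0.003 over all genes.

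Car13, a cytosolic enzyme gene and the neighbour of Car1, came nearest to a call. It averaged −0.37 at 5 g/kg and 0.02 with maltose, a change of −0.38 (SE 0.124, limma adjusted p = 0.119), and in a fit blocked by slide it was called lower (adjusted p = 0.0481). Car1, the red cell enzyme gene, changed by −0.37 at 5 g/kg (SE 0.148, adjusted p = 0.227) and by −0.17 at 7 g/kg. Without the first maltose array, Car1 was called lower at 5 g/kg (−0.57, adjusted p = 0.0397), and without the second its change there was −0.23. Car11, like Car8 an inactive relative, changed by 0.29 at 5 g/kg (SE 0.112, adjusted p = 0.205).

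The membrane-anchored Car15 changed by 0.26 at 7 g/kg (limma adjusted p = 0.370) and by 0.27 at 5 g/kg (adjusted p = 0.361). Its ethanol arrays did not overlap its maltose arrays at either dose. The share of all genes without such overlap was not counted. The gap between its 7 g/kg and maltose arrays was only 0.009, and its change at 7 g/kg was 0.05 without the second 7 g/kg array and 0.05 with Cy5 alone. Car9, a membrane enzyme gene known as a target of hypoxia-inducible factor, changed by 0.19 at 7 g/kg (SE 0.153, adjusted p = 0.568, n = 2 and 3) and by −0.01 at 5 g/kg (SE 0.137, adjusted p = 0.993, n = 3 each). The secreted enzyme gene Car6, whose probe was not well above background on 5 of 10 arrays, changed by 0.32 between 7 and 5 g/kg (SE 0.135, adjusted p = 0.403), and by 0.14 without the third 7 g/kg array. Car4, Car5b, Car10 and Car12 had changes between −0.16 and 0.30 in all comparisons. The mitochondrial relative Car5b changed by 0.02 at 7 g/kg and by −0.16 at 5 g/kg. Car7 was not tested, because the scanner software marked its spot as an outlier on 5 arrays.

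**Figure D3:**
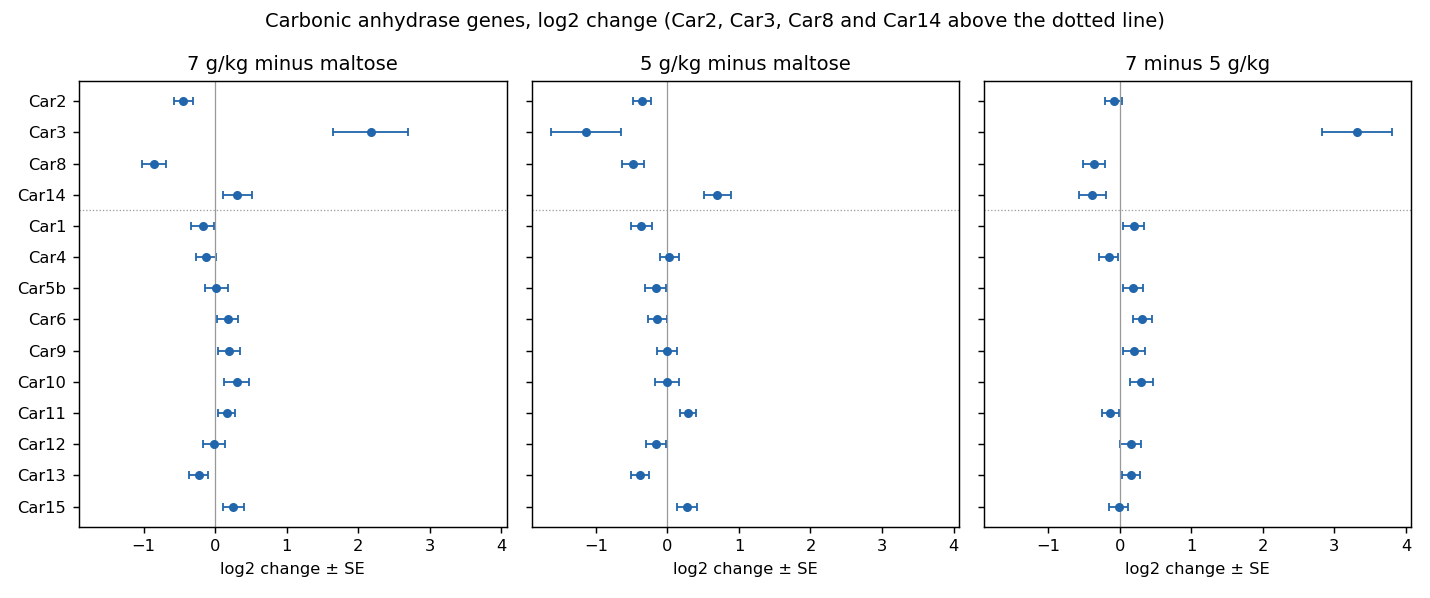
Log2 change with its SE for each measured carbonic anhydrase gene in 3 comparisons, from 1 limma fit of 10 arrays. Car3 lies farthest from 0 in each panel (2.18, −1.14 and 3.32), and the 10 genes below the dotted line stay between −0.38 and 0.32.

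Because Car9 is a textbook hypoxia target, the 250 bases before each annotated start were searched for the core of the hypoxia response element, ACGTG, on both strands. Of 16 family genes, 11 had an entry in the RefSeq promoter table of GRCm38.p6, and 4 held the core, Car14, Car9, Car6 and Car10. Among all 32851 windows listed there, 16.6% held it. That is a share of windows, whereas the family count is of genes, some of which have several windows. Car5a had an entry without a match. Car2, Car3, Car8, Car1 and Car13 had no entry. Car14 was the measured member with a match, and its promoter is shown beside that of Car9. In the 60 bases before each start the core reads as CACGT, which is ACGTG on the other strand, and it is in capitals.
Car14, chr3:95904686-95904745, minus strand: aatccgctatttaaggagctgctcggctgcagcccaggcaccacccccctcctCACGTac
Car9, chr4:43506966-43507025, plus strand: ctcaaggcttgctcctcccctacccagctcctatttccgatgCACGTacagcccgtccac
The core began 7 bases before the Car14 start and 18 bases before the Car9 start. At 5 g/kg Car14 was 0.70 above maltose and Car9 was at −0.01. At 7 g/kg their changes were 0.31 (SE 0.199) and 0.19 (SE 0.153), and whether they vary together was not tested. A match is a run of letters only, and binding was not measured.

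For each member, the 3 named genes with the highest Pearson r over the 10 arrays were taken from 13308 genes with a value on every array. All points share the arrays and the reference, so r is a description. Since the genes were picked by r, a like order of group means comes with that choice. For Car3 these were Slc22a30, an organic anion transporter family gene (r = 0.941), Acss2, which makes acetyl-CoA from acetate in the cytosol (r = 0.935), and Ces2b, a carboxylesterase gene (r = 0.913). Acss2 averaged 0.662 ± 0.078 at 7 g/kg, −0.637 ± 0.115 at 5 g/kg and −0.298 ± 0.210 with maltose (SD, n = 3, 4 and 3). Ces2b averaged 1.06 ± 0.072 at 7 g/kg, −0.600 ± 0.224 at 5 g/kg and −0.264 ± 0.499 with maltose. Like Car3, both were above 0 on all 7 g/kg arrays and had their lowest mean at 5 g/kg. Slc22a30 averaged 0.390 ± 0.071 at 7 g/kg, −0.241 ± 0.106 at 5 g/kg and 0.011 ± 0.340 with maltose, and its second maltose array was level with the lowest 7 g/kg array. Its change at 7 g/kg, 0.38, was 0.06 with outlier-marked spots kept.

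**Figure D4:**
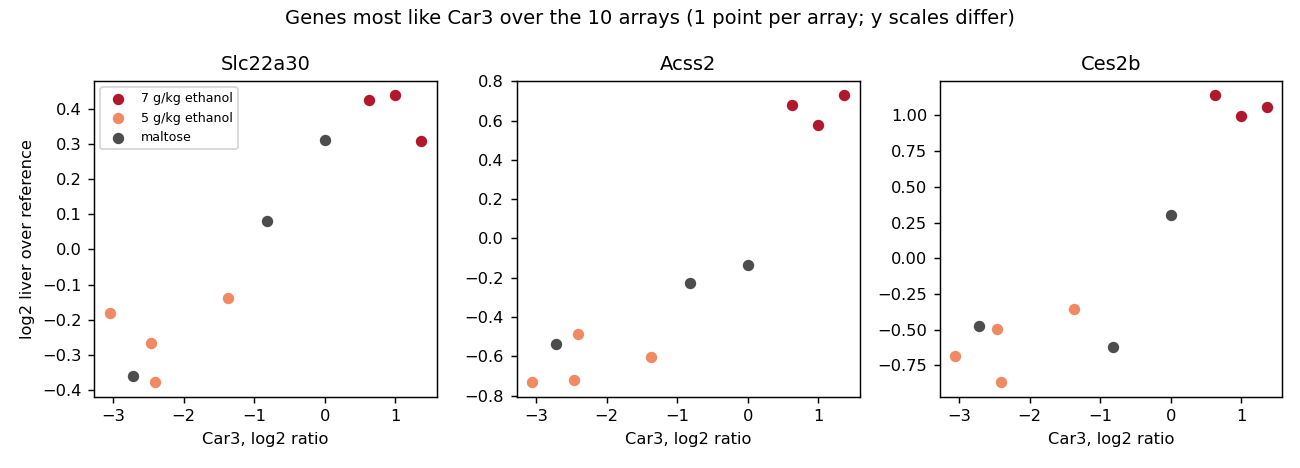
Log2 liver over reference ratio of Slc22a30, Acss2 and Ces2b (y axes, scales differ) against that of Car3 (x axis), with 1 point for each of the 10 arrays coloured by group. The 7 g/kg arrays lie at the upper right in each panel, the 5 g/kg arrays at the lower left with the first maltose array among them, and the other two maltose arrays lie between on the Car3 axis.

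The genes most like Car2 were Dis3l2, an exonuclease gene (r = 0.977), Pex19, a peroxisome assembly gene (r = 0.961), and Oxa1l, a mitochondrial membrane insertase gene (r = 0.961). All 3 averaged below 0 in both ethanol groups and above 0 with maltose, for example Pex19 at −0.395 ± 0.158, −0.277 ± 0.196 and 0.195 ± 0.174 for 7 g/kg, 5 g/kg and maltose. With outlier-marked spots kept, the change at 7 g/kg was 0.10 for Dis3l2, against −0.28 without them, and −0.21 for Pex19, against −0.59. Among those most like Car8 were Tcea3, a transcription elongation factor gene (r = 0.950), and the dUTPase gene Dut (r = 0.930). Tcea3 averaged −0.416 ± 0.056 at 7 g/kg, 0.085 ± 0.209 at 5 g/kg and 0.487 ± 0.229 with maltose, in the same order as Car8. Those most like Car14 were Vcpip1, a deubiquitinase gene (r = 0.960), the proteoglycan gene Dcn (r = 0.952) and the crystallin gene Cryga (r = 0.951). Dcn averaged −0.125 ± 0.135 at 7 g/kg, 0.272 ± 0.155 at 5 g/kg and −0.464 ± 0.331 with maltose.

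Genes that use or move the products of carbonic anhydrases were read from lists. Of 7 bicarbonate-using carboxylase genes tested, 2 rose at 7 g/kg and none was called at 5 g/kg or between the doses. They were the acetyl-CoA carboxylase genes Acaca (0.58, SE 0.118, limma adjusted p = 0.00623, or 1.17 averaged over its probes) and Acacb (0.67, SE 0.138, adjusted p = 0.00647), which fix bicarbonate in fatty acid synthesis and its control. The median change of the list was −0.06 at 7 g/kg, beside 0.01 over all genes. Of 3 genes tested in the list of urea cycle and glutaminase genes, 1 was called: the liver glutaminase gene Gls2, not itself a urea cycle enzyme, fell at 7 g/kg (−0.54, SE 0.131, limma adjusted p = 0.0178). In a fit blocked by slide, its adjusted p was 0.0575.

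Of 16 bicarbonate and proton transporter genes tested, 2 rose and 1 fell at 7 g/kg, 1 rose at 5 g/kg, and 1 was lower at 7 than at 5 g/kg. The anion exchanger gene Slc26a6 rose at both doses (0.52 at 7 g/kg, limma adjusted p = 0.0114; 0.60 at 5 g/kg, adjusted p = 0.0105), and by 1.02 and 1.18 with the scanner software's ratio. The monocarboxylate transporter gene Slc16a1, whose product carries lactate with a proton, rose at 7 g/kg (0.96, SE 0.164, limma adjusted p = 0.0018). Its relative Slc16a7 fell (−1.36, SE 0.128, adjusted p = 4.34e-05, n = 3 and 2) and was also lower at 7 than at 5 g/kg (−1.25, SE 0.115, adjusted p = 0.000187). The median change of the transporters was −0.003 at 7 g/kg and −0.06 at 5 g/kg.

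Beside Car8 stand 8 genes of IP3 receptors and calcium handling. One, the calcium pump gene Atp2a2, rose at 7 g/kg (0.66, SE 0.153, limma adjusted p = 0.0194, n = 2 and 3) and at 5 g/kg (1.16, SE 0.153, adjusted p = 0.00173, n = 2 and 3). In a fit blocked by slide, its adjusted p at 7 g/kg was 0.352. Without the third 7 g/kg array that change was 0.43 (adjusted p = 0.166). Itpr1, the receptor that Car8 binds, named here after its values were seen, changed by 0.31 at 7 g/kg (SE 0.144, adjusted p = 0.245) and by −0.004 at 5 g/kg (SE 0.135, adjusted p = 0.994). The median change of this list was 0.14 at 7 g/kg and 0.004 at 5 g/kg.

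Car3 is male-predominant in rat liver, and 11 other male-predominant mouse liver genes were tested. At 7 g/kg 2 rose, at 5 g/kg 1 rose and 1 fell, and between 7 and 5 g/kg 3 were higher, with list medians of −0.01, −0.23 and 0.45. The oxysterol hydroxylase gene Cyp7b1 was higher at 7 than at 5 g/kg (1.35, SE 0.149, limma adjusted p = 0.000328), as were the selenium-binding gene Selenbp2 (1.06, SE 0.137, adjusted p = 0.00116) and Nudt7, a peroxisomal CoA diphosphatase gene named after its values were seen (1.61, SE 0.253, adjusted p = 0.00564, n = 2 and 4). Without the second 7 g/kg array Nudt7 changed by 1.25 and was not called. Against maltose, Selenbp2 rose at both doses, by 1.87 and 0.82. The steroid reductase gene Hsd3b5 fell at 5 g/kg (−1.90, SE 0.325, limma adjusted p = 0.00421) and changed by −0.62 at 7 g/kg (SE 0.348, adjusted p = 0.359). That change was −1.16 without the first maltose array and −0.17 without the second. Cyp7b1 had the order of means of Car3, with 0.43 at 7 g/kg, −0.92 at 5 g/kg and −0.53 with maltose. Nudt7 had it too, with 0.47, −1.14 and −0.43. Selenbp2, above maltose at both doses, and Hsd3b5, below it at both, did not. How many of all genes have that order was not counted.

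Of 12 female-predominant liver genes tested, 2 rose and 4 fell at 7 g/kg, 2 rose and 2 fell at 5 g/kg, and 1 was lower at 7 than at 5 g/kg. Those that rose were the P450 genes Cyp2b13, with 3.99 at the higher dose and 4.75 at the lower, and Cyp2b9, with 1.72 and 2.36. Their sequences are nearly identical, so a probe may read both. Averaged over the probes of the gene, Cyp2b13 was 2.12 at the higher dose and 2.48 at the lower. The fatty acid hydroxylase gene Cyp4a14 was lower by 6.01 at 7 than at 5 g/kg (log2 −6.01, SE 0.184, limma adjusted p = 2.25e-10), in the opposite direction to Car3. The other genes that fell were Acot3 and Cux2 at both doses, neither well above background on any 7 g/kg array, and Fmo2 at 7 g/kg.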

How the data were processed

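The median intensity of each spot and of its background was measured in both channels with Agilent Feature Extraction 11.5.1.1, per the file headers. The same software computed the deposited log10 ratio, liver (red) over reference (green). The deposited series table holds log2 ratios. This scale was read from its slope of 3.32 to 3.34 on the log10 ratio (r of 0.94 to 1.00). Its column medians were 0.0138, −0.0734 and 0.0760 at 7 g/kg, −0.0422, −0.00997, −0.0658 and 0.0448 at 5 g/kg, and 0.0622, 0.0249 and 0.0135 with maltose. How it was centred is not given in the sources used here.

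Median intensities were corrected by normexp (offset 50) and loess-normalized within arrays in limma 3.58.1 (R 4.3.3). Control spots and outlier-marked spots (2.42% to 5.83% per array) were left out, and spots of a probe averaged. Of 41174 probes, 24375 (59.2%) matched a symbol. Probes well above background on at least 3 arrays were kept, with at least 2 values per group and the brightest probe per gene, which left 26122 genes. The fit had 7 residual and 7.24 prior degrees of freedom, and all tests were two-sided. Only the group fit was tested on simulated data, made from the normalized ratios. The steps before it were not.

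Members, lists and markers were chosen with earlier results of these data known. Named genes are the carbonic anhydrases, up to 4 called genes per pathway list with the smallest p against maltose, and 3 genes most like each member, of which 1 is not reported here. Markers were named where a member is known in that cell type or a list's called share exceeded the background. Replicate numbers did not pair the samples: same-numbered deviations correlated at −0.207 to 0.204. Alternatives changed background correction, normalization, channel, source, filter, probe choice, outlier handling, slide or replicate block, moderation and array weights, and left out each array.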

Additional observations from a re-analysis of the deposited data

Results flagged for a closer look

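At 5 g/kg, the only group with 4 arrays, 51 sets of 4 values were searched for an array far from the other 3 by Dixon's criterion, which chance meets in about 1 of 20 groups. In 4 of the 51 an array stood apart. Car13 was −0.0757 on the third array, against −0.488 to −0.424 on the others. Car5b was −0.0791 on that array, against −0.318 to −0.285. Hsd3b5 was −2.03 there, against −1.47 to −1.36. Car15 was −0.103 on the first array, against 0.056 to 0.072. No set of Car2, Car3, Car8 or Car14 values met the criterion.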

How the results depend on the processing

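Over 23 alternatives the changes of Car3, Car8 and Car14 kept their sign in every comparison, and so did those of Car2 against maltose. Car2 moved beyond the spread between replicates with the scanner software's ratio and with the series table (−0.53 at 5 g/kg and −0.72 at 7 g/kg in both) and with Cy5 alone at 7 g/kg (−0.63). Car8 moved when its probes were averaged (−0.49 at 7 g/kg). Over arrays left out in turn, Car3 ranged from 1.41 to 2.77 at 7 g/kg and from −1.91 to −0.55 at 5 g/kg.

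Genes called at 5 g/kg, 992 in the fit described, were 120 with Cy5 alone, 522 with the scanner ratio, 554 with the series table and 469 to 1068 without single arrays (469, 634 and 505 without maltose 1, 2 and 3). At 7 g/kg 2355 became 592 with Cy5 alone and 1506 to 2360 without single arrays, lowest without maltose 1. Between the doses 410 became 47 with Cy5 alone (68.1% of them higher, against 42.2%), 116 with the scanner ratio, 130 with the series table and 203 to 423 without single arrays (203 and 229 without 7 g/kg arrays 1 and 2, 258 and 229 without 5 g/kg arrays 1 and 2). Other carbonic anhydrase genes called at 5 g/kg were 1 with slide as a block and 0 to 1 without single arrays. Pathway list genes called were 4 with Cy5 alone and 5 with a filter on all 10 arrays at 5 g/kg (8 in the fit described), 6 with Cy5 alone at 7 g/kg (15), and 8 with outlier-marked spots kept between the doses (5). The causes were not tested. With the replicate number as a block 935, 2319 and 289 genes were called at 5 g/kg, at 7 g/kg and between the doses, and Car3 changed by −1.46, 2.18 and 3.63. Among the values of single named genes, 3845 stayed on the same side of the threshold, called or not, 236 lost a call and 42 gained one, and 2 called values changed sign, both hepatocyte markers with Cy5 alone: Ahsg at 5 g/kg (−0.066, against 1.23) and Trf at 7 g/kg (−0.0096, against 0.57).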
